A study of Homo sapiens with 16 samples.

Results

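The 10 genes described here encode the eukaryotic chaperonins of the HEK293 cell: the subunits of CCT in the cytosol, TCP1, CCT2, CCT3, CCT4, CCT5, CCT6A, CCT7 and CCT8, and the chaperonin of the mitochondrial matrix, HSPD1, with its lid HSPE1. The rule takes them by name, with no threshold on a measured value, and they were found by the symbol of the Ensembl identifier, as 10 of the 58302 genes listed in each library. All 10 passed the filter on low counts in every comparison, and the lowest count of any of them in a library was 1581 reads, for HSPE1.

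A chaperonin is a double ring that closes over an unfolded protein and lets it fold inside. CCT, also called TRiC, stacks 2 rings of 8 different subunits each, encoded by separate genes named in order of the Greek letters from TCP1 (alpha) to CCT8 (theta), and it folds actin, tubulin and a range of other cytosolic proteins. HSPD1 (HSP60) forms rings of a single kind of subunit and is capped by rings of HSPE1 (HSP10). Both are made from nuclear genes, translated in the cytosol and imported into mitochondria.

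HEK293 is an established line from human embryonic kidney. Gemin5, an RNA-binding protein of the SMN complex that also acts on translation, was silenced with an siRNA at 100 nM delivered with Lipofectamine 2000 (siRNAG5), and the time between transfection and lysis is not given in the sources used here. Ctrl cells are labelled untreated, while the study calls them the siRNA control. RNA came from the cytoplasmic lysate (Input) or from gradient fractions 8 to 12, which hold the polysomes, pooled after cycloheximide (Polysome), in 4 libraries per group and 16 in all. The study describes 4 independent samples of Ctrl and 4 of siRNAG5 cells, and each lysate gave both fractions, so Input and Polysome libraries are not separate cultures. The labels number the replicates 1 to 4 in each group without saying that a number marks a lysate. The comparisons ask how silencing of Gemin5 moved the chaperonin mRNAs in the lysate and how it moved them in polysomes. They also ask how the share of each mRNA in the polysome pool compared with its share in the lysate. Polysome association is not a measure of protein made, and in bulk samples fewer cells that express a gene and less RNA per cell cannot be told apart.

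The CCT genes are scattered over the genome. TCP1 (chr6:159778498-159789703), CCT3 (chr1:156308968-156367873), CCT4 (chr2:61868085-61888671) and CCT8 (chr21:29055805-29073797) lie on the minus strand. CCT2 (chr12:69585426-69601570), CCT5 (chr5:10249929-10266389), CCT6A (chr7:56051685-56063989) and CCT7 (chr2:73233420-73253021) lie on the plus strand. The genes for the mitochondrial pair lie head to head on chromosome 2, with HSPD1 on the minus strand at chr2:197486584-197516737 and HSPE1 on the plus strand at chr2:197500140-197503449 (GENCODE v44, GRCh38). Their RefSeq start sites (GRCh38.p14) are 104 bases apart when counted from the outer HSPD1 start at position 197500274, and 538 bases apart from the inner one at 197499840. The first stretch below, chr2:197500345-197500374 on the plus strand, lies between the outer RefSeq start of HSPD1 and the HSPE1 start, inside both genes as GENCODE draws them (their spans overlap and share 135 exon bases), and holds the only E-box (CACGTG, in capitals) found for the pair, 22 to 17 bases before the HSPE1 start. It is shown because one site is shared by genes that differed in these data. The second, chr2:197500061-197500090 on the minus strand, lies upstream of the inner HSPD1 start and downstream of the outer one. Its capitals, 245 to 228 bases before the inner start, are a run of overlapping heat shock elements, the binding sequence of the heat shock factors.

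HSPE1 E-box: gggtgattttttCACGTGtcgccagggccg

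HSPD1 heat shock elements: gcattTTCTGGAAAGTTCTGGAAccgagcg

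Promoter entries, 250 bases before to 50 after a start, were found for 9 of the 10 genes (12 entries, with 2 each for CCT2, CCT4 and HSPD1). The gene without an entry is CCT6A. Searched on both strands, a heat shock element as GAANNTTC stood in 3 of the 12 entries, and in 6.77% of the 35116 RefSeq promoters. As TTCNNGAA it stood in 2 of the 12 entries, and in 7.74% of all promoters. Either pattern stood in 4 of the 12 entries, and the share of all promoters with either pattern was not taken. The E-box stood in 2 entries, which are HSPE1 and the outer HSPD1 start and hold the same site, and in 7.26% of all promoters. GGGCGG, the GC box, stood in 9 entries (45% of all promoters), and CCAAT in 4 (34.6%). These are matches of letters, and binding was not measured.

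The first bases of the mRNA were read as well, because ribosomal protein mRNAs, whose association with polysomes the study examined, start with a C and a run of pyrimidines. In the 15-base starts below, capitals mark the uninterrupted run of pyrimidines from the first base of an mRNA that begins with C. CCT4 (chr2:61888642-61888656), CCT8 (chr21:29073634-29073648) and the inner start of HSPD1 (chr2:197499826-197499840), all on the minus strand, began so. TCP1 (chr6:159789588-159789602, minus), CCT2 (chr12:69585459-69585473, plus) and HSPE1 (chr2:197500379-197500393, plus) did not, and are given for contrast.

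CCT4: CTTCTCCgcctccgc

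CCT8: CCTCgcttcctccgc

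HSPD1: CCCTCactcgccgcc

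TCP1: agtagctcctgggac

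CCT2: agtccgctggtcccg

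HSPE1: gcgagtctctttgcg

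A C followed by pyrimidines to a run of at least 5 opened 2 of the 12 entries (16.7%), those of CCT4 and HSPD1, against 4.07% of all promoters and 56.5% of 85 entries of cytosolic ribosomal proteins. CCT4 and HSPD1 each have another RefSeq start without such a run.

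GEMIN5 itself was lower in every siRNAG5 library than in every Ctrl library of the same fraction, at 6.22 to 7.45 against 15.9 to 20.6 CPM (counts relative to library size) in Input and 2.10 to 3.08 against 5.49 to 9.28 CPM in Polysome. Libraries held 11145324 to 24511299 reads on genes, and not uniquely aligned reads were 4.88 to 6.04% in Input and 21.2 to 42.4% in Polysome. Levels are shares of the mRNA of a library, scaled by the TMM method, which sets the bulk of genes equal. Scaled to library totals instead, the median over all genes moved from 0.04 to 0.14 (log2, siRNAG5 over Ctrl) in Input, from 0.03 to 0.38 in Polysome, and from -0.03 to 0.51 for Polysome over Input in Ctrl, so the values below are relative to the bulk of mRNAs. With the 10 genes left out, the third principal component (8.25% of the variance) set 3 Polysome libraries apart, Ctrl 1, siRNAG5 1 and siRNAG5 4, with scores of 35.3 to 38.4 where the other 5 lay between -26.2 and 2.2. The 6 HEK293 markers (VIM, KRT8, KRT18, NEFM, NEFL and INA) all had reads and summed to 1155 to 1675 CPM in Input and 491 to 777 CPM in Polysome. The 15 liver genes, which mark another tissue, summed to 80.7 to 167 CPM in the Polysome Ctrl libraries and 151 and 131 CPM in Input Ctrl 3 and 4, against 0.371 to 2.68 CPM in the other libraries, with 8 of 15 at no read in each siRNAG5 group. Values without Input Ctrl 3 and 4 are given for the calls of siRNAG5 over Ctrl in Input and of Polysome over Input in Ctrl. The levels per length, the shares, the ratio of HSPE1 to HSPD1, the difference between fractions and the correlations keep these libraries. The 6 blood genes summed to 0.329 to 2.51 CPM.

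The chaperonin genes were abundant and unequal. Per length, in CPM per kilobase of the canonical transcript over the 4 Input Ctrl libraries (mean ± SD, n = 4), CCT7 (754 ± 50.7) and CCT3 (718 ± 31.9) stood first and their ranges overlapped. CCT4 (455 ± 22.7) and HSPD1 (430 ± 3.81) followed, each apart from its neighbours. HSPE1 (354 ± 26.6), TCP1 (352 ± 20.8) and CCT8 (322 ± 5.4) formed a run in which neighbouring ranges overlapped, and HSPE1 was above TCP1 in 1 of the 4 libraries. CCT2 (276 ± 19.5) and CCT5 (274 ± 15.3) were not separable on this scale, and CCT6A (237 ± 14.5) was below all others. Each subunit type holds its own place in the ring, and per length the CCT mRNAs spanned 3.19-fold (SD 0.103, n = 4) from the most to the least abundant. The order, the span and the CCT shares given below rest on the canonical transcript chosen. CCT5 and CCT2 have like coding lengths (1623 and 1605 nt) but canonical transcripts of 3293 and 1916 nt. Before division by length they were at 903 and 528 CPM in Input Ctrl.

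In Input siRNAG5 the order changed where single members moved. CCT3 (665 ± 33 CPM per kilobase) was now above CCT7 (615 ± 20) in all 4 libraries, with overlapping ranges, and CCT6A (162 ± 12.3) remained last. By its mean, HSPE1, at 206 ± 17.8, moved behind CCT8 (294), TCP1 (235 ± 15.8), CCT2 (221) and CCT5 (217). Its range of 188.8 to 230.5 overlapped those of TCP1, CCT2 and CCT5, and in Ctrl it had been above TCP1 in only 1 of the 4 libraries. The span of the CCT genes was 4.11-fold (SD 0.487). In Polysome every pair of neighbours overlapped: CCT7 was first at 391 ± 123 in Ctrl and 282 ± 72.6 in siRNAG5, and CCT2 last at 119 ± 33.2 and 103 ± 25.

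**Figure D1:**
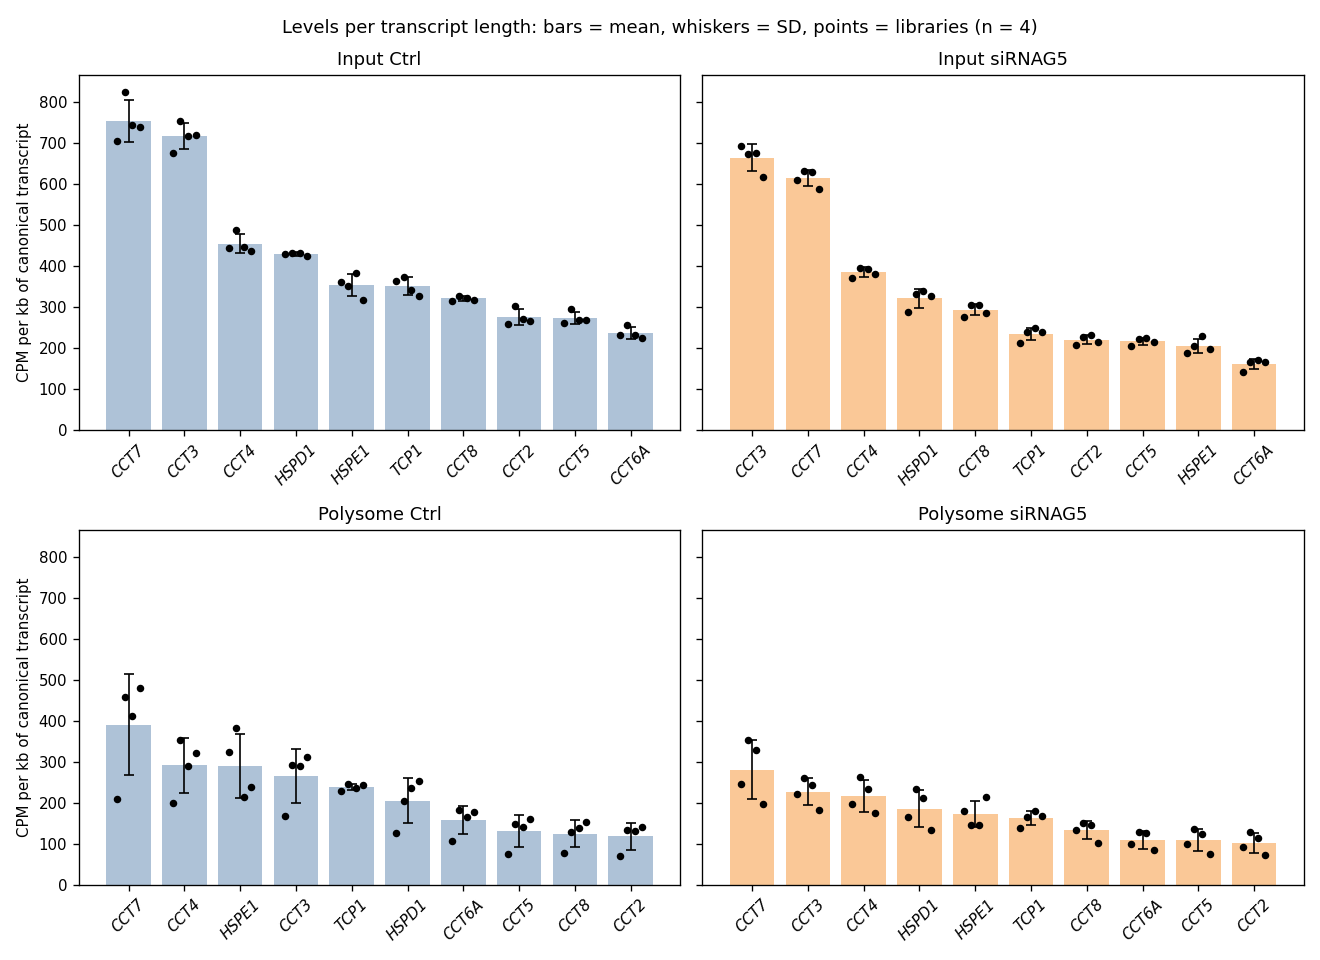
Level of each chaperonin gene in CPM per kilobase of its canonical transcript, with bars at the mean, whiskers of 1 SD and a point for each of the 4 libraries, in a panel for each of the 4 groups. In Input Ctrl the means run from 754 for CCT7 to 237 for CCT6A, and in Polysome the points of one gene scatter so widely that neighbours overlap.

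In the cytoplasmic lysate, silencing of Gemin5 went with less mRNA of most chaperonin genes. TCP1, CCT6A and HSPE1 passed both thresholds, an adjusted p under 0.05 and a log2 fold change beyond 0.5. These are 3 of 10 genes, where 6.02% of the 14134 genes tested were called lower, and 0 of 10 were called higher (10.5% of all genes). At the same adjusted p whatever the size, 8 of 10 were lower (19.1% of all genes), and in 9 of 10 each siRNAG5 library was under each Ctrl library (19.1% of all genes). The median log2 fold change was -0.32 over the 10 genes and 0.04 over all genes. Genes of a like abundance also lay below that median: the 1249 genes with a mean of at least 150 CPM in Input Ctrl, a class set after the values were seen and which holds all 10, had a median of -0.27, and 18.2% were called lower.

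HSPE1, the lid of the mitochondrial chaperonin, had the largest decrease of the 10. It measured 201.4, 195.5, 213.3 and 177.7 CPM in Input Ctrl 1 to 4, and 105.2, 114.4, 128.4 and 110.6 CPM in Input siRNAG5 1 to 4. The groups were far apart, and the siRNAG5 mean was 58.2% of the Ctrl mean. The log2 fold change was -0.77 (SE 0.07, 95% interval -0.91 to -0.62, edgeR adjusted p = 1.543e-09). Genes with a short coding sequence, as HSPE1 has (306 nt), also lay below the median of all genes. The 568 tested with 200 to 400 nt had a median of -0.20, and 15.3% were called lower.

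TCP1, the alpha subunit, measured 858.9, 876.9, 808 and 769.5 CPM in Ctrl against 499.5, 564, 585.8 and 561.5 CPM in siRNAG5. Every silenced library was below every control library, at 66.7% of the control mean. Its log2 fold change was -0.57 (SE 0.06, interval -0.70 to -0.44, edgeR adjusted p = 3.756e-08). CCT6A, the zeta subunit of most tissues, measured 598.7, 665.8, 601.9 and 579.7 CPM in Ctrl and 370.7, 429.8, 440.2 and 431.3 CPM in siRNAG5, again without overlap and at 68.4% of the control mean. It fell by 0.54 on the log2 scale (SE 0.07, interval -0.67 to -0.40, edgeR adjusted p = 1.956e-07), near the threshold: without Input Ctrl 2 or Input siRNAG5 1 its log2 fold change was -0.49 or -0.48 and the call was lost.

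HSPD1, the ring subunit that HSPE1 caps, was also lower, by less. Its 4 Ctrl libraries lay close together at 963.7, 971.3, 970.6 and 952.9 CPM, and the siRNAG5 libraries at 645.7, 748.2, 764.3 and 733.1 CPM. The siRNAG5 mean was 74.9% of the Ctrl mean, a log2 fold change of -0.40 (SE 0.06, interval -0.53 to -0.28, edgeR adjusted p = 4.971e-06) that did not reach the fold threshold. HSPE1 per kilobase was 0.752 to 0.886 times HSPD1 in Ctrl and 0.608 to 0.677 times in siRNAG5, ranges that do not overlap.

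Among the other CCT subunits, CCT5 (epsilon, -0.33, edgeR adjusted p = 8.558e-05), CCT2 (beta, -0.30, adjusted p = 0.000391), CCT7 (eta, -0.28, adjusted p = 0.000509) and CCT4 (delta, -0.22, adjusted p = 0.00341) had lower levels in all 4 siRNAG5 libraries, at 79 to 84.9% of Ctrl. CCT8 (theta) was 597 ± 10 CPM (SD, n = 4) in control and 544 ± 25.5 CPM in silenced cells. Its groups did not overlap, but the log2 fold change of -0.12 (interval -0.24 to 0.00) did not pass the test (edgeR adjusted p = 0.115). CCT3 (gamma) measured 1338, 1492, 1421 and 1425 CPM in Ctrl and 1371, 1335, 1335 and 1221 CPM in siRNAG5. It was the only member whose groups overlapped in Input, and the interval of its log2 fold change, -0.22 to 0.03, leaves room for a decrease about as large as that of CCT4 (edgeR adjusted p = 0.212).

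The proportions among the CCT mRNAs were not the same in both groups. TCP1 made up 10.4 ± 0.555% of the CCT mRNA per length in Input Ctrl (SD, n = 4) and 8.41 ± 0.44% in siRNAG5, and CCT6A 6.99 ± 0.151% and 5.79 ± 0.374%. The shares of CCT3 (21.2 ± 0.508% and 23.8 ± 1.16%) and CCT8 (9.51 ± 0.309% and 10.5 ± 0.216%) went the other way. The ranges of the groups were apart in these 4 genes, and by less in CCT4 and CCT5. In Polysome, where the levels scattered, the shares of CCT8 (7.23 ± 0.563% and 9.98 ± 0.561%), CCT6A (9.24 ± 0.219% and 8.17 ± 0.184%) and CCT3 (15.4 ± 0.557% and 17 ± 0.816%) also had ranges apart, in the same directions as in Input, while those of TCP1 overlapped. The shares sum to 100 within a library, so one share cannot move without the rest, and they carry no test.

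**Figure D2:**
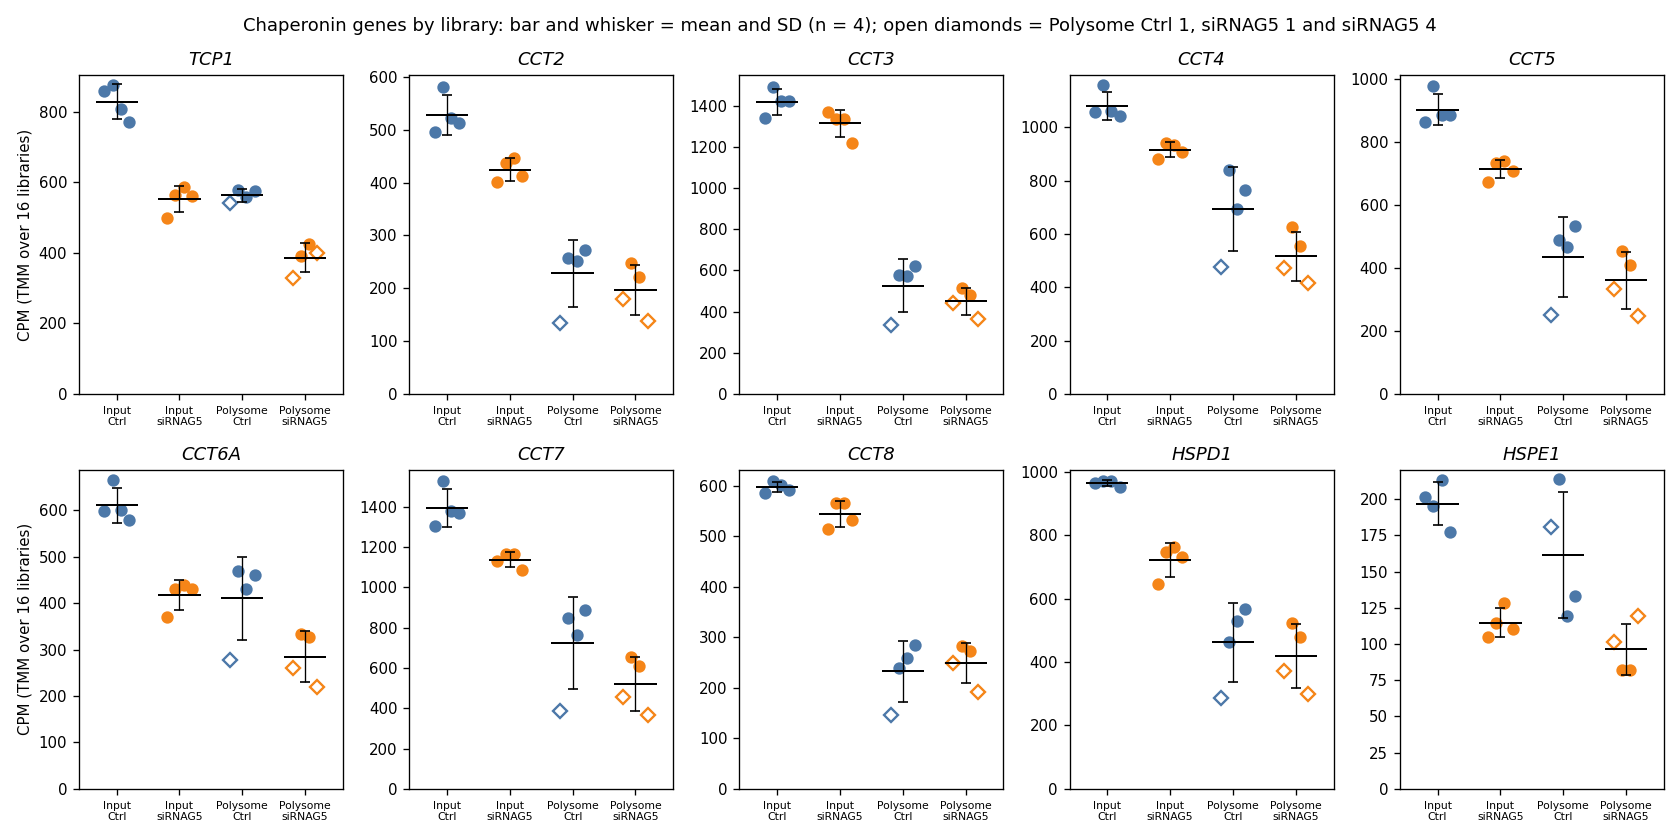
Level of each chaperonin gene in CPM (linear axis from 0) in the 16 libraries, a panel per gene, with blue points for Ctrl, orange for siRNAG5, a bar and whisker for mean and SD (n = 4), and open diamonds for Polysome Ctrl 1, siRNAG5 1 and siRNAG5 4. In Input the siRNAG5 points lie below the Ctrl points in every panel but that of CCT3, and in Polysome the diamonds lie lowest of their group for 8 genes but not for HSPE1, and lie near the other points for TCP1.

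Scaled to library totals, HSPE1 (-0.66) was the only call among the 10 in Input, TCP1 and CCT6A were at -0.46 and -0.43, and CCT3 turned to 0.01, with the median over all genes at 0.14 and that of the 10 at -0.21. Over all genes 450 were called lower and 2175 higher on that scale. Leaving out Input Ctrl 3 and 4, the Input libraries with liver reads, left the same 3 calls, with TCP1 at -0.64, CCT6A at -0.59 and HSPE1 at -0.78.

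In polysomes the same genes were lower on average but the libraries scattered more, and 0 of 10 passed both thresholds by edgeR (4% of the 14420 genes tested were called lower and 3.95% higher). With the p left unadjusted, 3 of 10 were lower at p under 0.05 (13.3% of all genes), namely TCP1, CCT6A and HSPE1, and in 2 of 10, TCP1 and HSPE1, the groups did not overlap, with siRNAG5 below (10% of all genes). DESeq2 called these latter 2, TCP1 at -0.54 (adjusted p = 0.000106) and HSPE1 at -0.75 (adjusted p = 0.0167). The median was -0.30 over the 10 genes and 0.03 over all, and -0.42 over the 1249 abundant genes.

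HSPE1 in Polysome measured 180.6, 213.7, 119.7 and 132.9 CPM in Ctrl and 101.1, 81.99, 82.36 and 119.5 CPM in siRNAG5. The highest silenced library lay just under the lowest control library. The log2 fold change was -0.71 (SE 0.21, interval -1.17 to -0.26) and the edgeR adjusted p of 0.0551 just missed the threshold. It passed, with HSPE1 alone among the 10 called, when Polysome Ctrl 3 or siRNAG5 4 was left out. The 574 genes tested with a coding length of 200 to 400 nt, the class of HSPE1, had a median of -0.38. Of these, 11% were called lower.

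TCP1 had the smallest spread of the CCT mRNAs in polysomes, relative to its mean. It measured 540.1, 579.2, 557.1 and 576.2 CPM in Ctrl and 329.4, 391.1, 425.2 and 398.7 CPM in siRNAG5. The groups were well apart, at 68.6% of the control mean. Its log2 fold change of -0.50 (SE 0.15, interval -0.83 to -0.18) had an edgeR adjusted p of 0.0561. CCT6A measured 278.4, 470.5, 431.6 and 461.2 CPM in Ctrl against 260.3, 332.7, 327.2 and 220.3 CPM in siRNAG5, so that Ctrl 1 fell among the silenced libraries. Its log2 fold change was -0.48 (interval -0.92 to -0.03, edgeR adjusted p = 0.151).

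The other 7 had overlapping groups. CCT7 measured 388.4, 848.3, 763.2 and 886.1 CPM in Ctrl and 457.8, 654.3, 608.4 and 364.5 CPM in siRNAG5, with a log2 fold change of -0.42 (SE 0.27, edgeR adjusted p = 0.334). Ctrl 1 and siRNAG5 4 were about equally low there. CCT4 was at -0.38, CCT5 at -0.22, CCT3 at -0.18 and CCT2 at -0.16 (edgeR adjusted p = 0.26, 0.603, 0.617 and 0.69). HSPD1 measured 462 ± 125 CPM (SD, n = 4) in control and 419 ± 102 CPM in silenced cells, a log2 fold change of -0.09 with an interval of -0.61 to 0.42. CCT8 was the only member with a higher mean in silenced cells, 249 ± 40.3 against 232 ± 60.9 CPM, and its interval of -0.30 to 0.60 covered both directions.

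**Figure D3:**
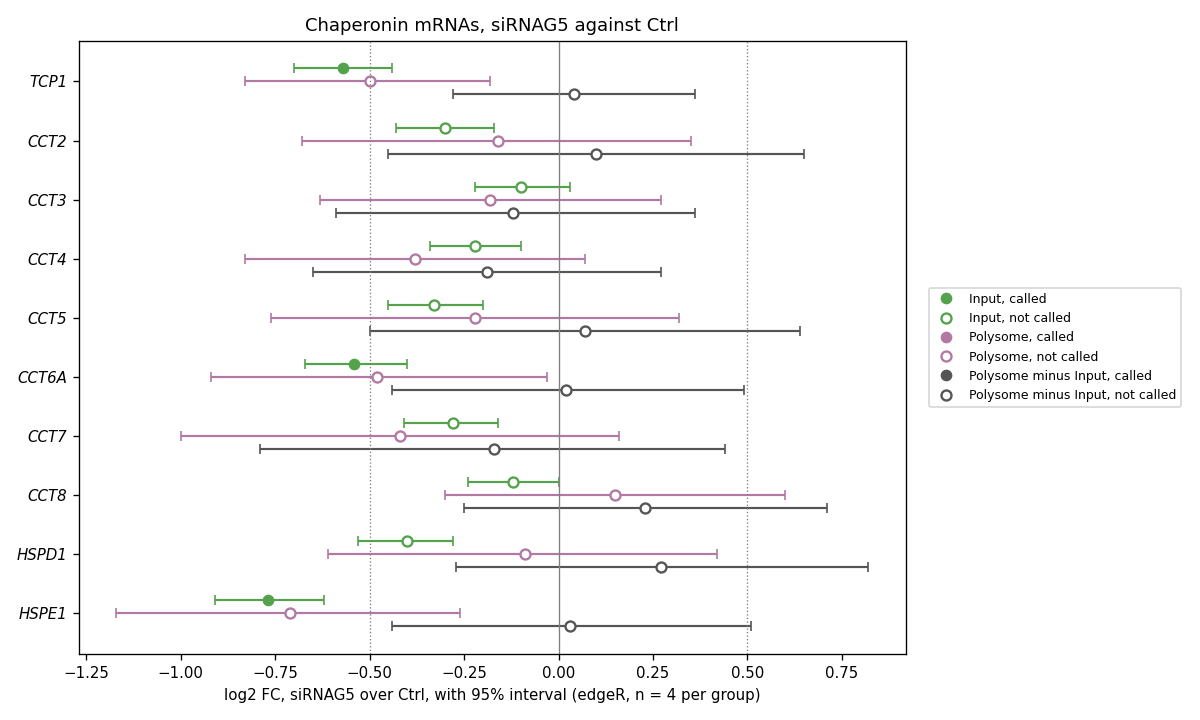
Log2 fold change of siRNAG5 over Ctrl for each chaperonin gene in Input (green) and in Polysome (purple), and the Polysome change less the Input change (grey), with 95% confidence intervals from edgeR (n = 4 per group), filled where called, and dotted lines at the fold threshold. The Input intervals are narrow and lie below 0 for all but CCT3 and CCT8 (whose interval ends at 0.00), while the Polysome intervals of all but TCP1, CCT6A and HSPE1 cross 0, as do the grey intervals of all 10.

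The spread in Polysome followed the 3 libraries that stood apart. Within Ctrl, the library of that set stood at 46.6% (CCT7) to 62.1% (CCT4) of the mean of the other libraries for CCT2 to CCT8 and HSPD1. Within siRNAG5 the 2 libraries stood at 65.1% (CCT7) to 80.6% (CCT3) for the same genes. TCP1 (94.6% and 89.2%) differed little and HSPE1 (116% and 134%) had a higher mean in the set, while over all genes the log2 difference had a median of -0.01 and 0.02. For HSPE1 the ranges were apart only in siRNAG5. In Ctrl its library of the set (180.6 CPM) lay within the range of the others (119.7 to 213.7 CPM). What sets these libraries apart was not tested.

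**Figure D4:**
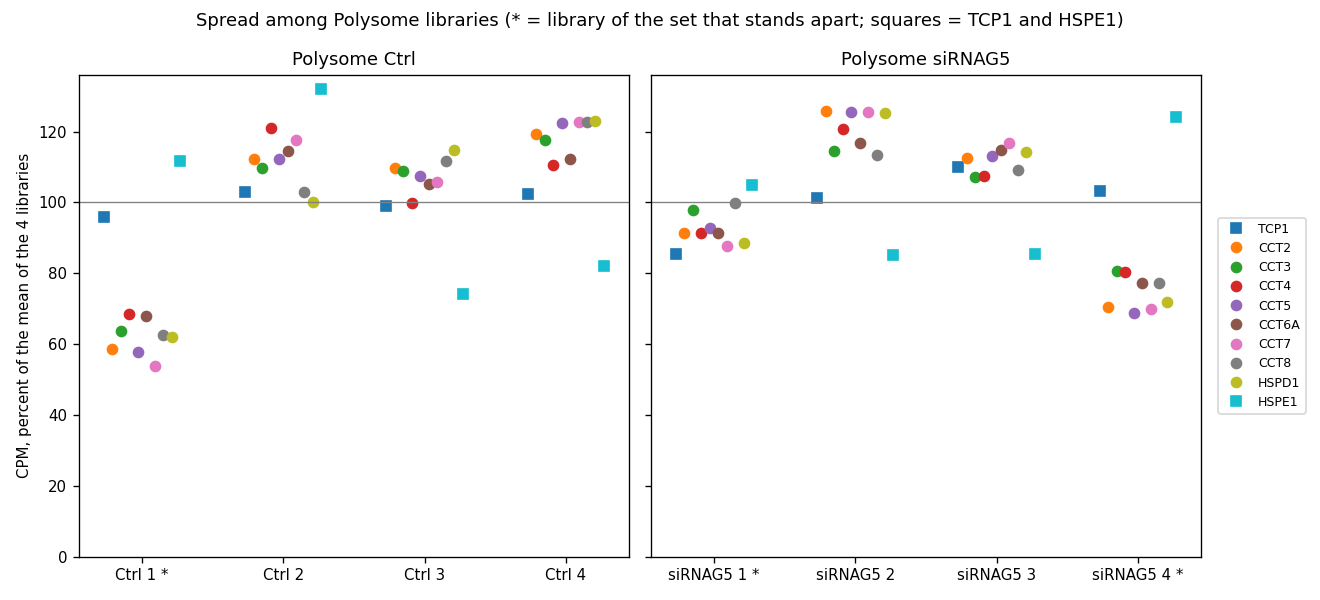
Polysome libraries only: CPM of each chaperonin gene as a percent of its mean over the 4 libraries of the group, in a panel for Ctrl and one for siRNAG5, with squares for TCP1 and HSPE1 and an asterisk at the 3 libraries of the set. In Ctrl 1, CCT2 to CCT8 and HSPD1 lie below the line at 100% while TCP1 lies near it and HSPE1 above it.

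Fold changes were also taken within each kind of library, with no test. Among the other 5 Polysome libraries, 3 of Ctrl and 2 of siRNAG5, log2 values of siRNAG5 over Ctrl were -0.92 for HSPE1, -0.48 for TCP1, -0.46 for CCT6A, -0.40 for CCT7 and -0.38 for CCT4. In the set, 1 library of Ctrl and 2 of siRNAG5, the same genes stood at -0.71, -0.57, -0.21, 0.08 and -0.10. CCT2, CCT3, CCT5 and HSPD1 stood at 0.25, 0.26, 0.21 and 0.23 in the set and at -0.15, -0.24, -0.21 and -0.05 in the others, and CCT8 at 0.60 and 0.09. With the set as a covariate, or its libraries left out, HSPE1 was called (-0.81 and -0.87) and no other member was. Under library totals no member was called in Polysome, where 207 genes were called lower and 2307 higher. HSPE1 (-0.35), TCP1 (-0.14) and CCT6A (-0.11) stayed below 0 on that scale, and the median of all genes was 0.38. The liver genes moved with the same groups: all 4 Polysome Ctrl libraries held 80.7 to 167 CPM of them and 14 of the 14 tested were called lower in siRNAG5, so that whatever brought them and the silencing cannot be told apart in Polysome.

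The change in Polysome did not differ detectably from the change in Input for any chaperonin gene. By the interaction contrast over the 16 libraries 0 of 10 were called, as was 0% of the 14958 genes tested, and 0 of 10 had an unadjusted p under 0.05 (7.28% of all genes). DESeq2 called 29 genes and none of the 10. The differences (log2, Polysome change less Input change) ran from -0.19 (CCT4, interval -0.65 to 0.27) to 0.27 (HSPD1, interval -0.27 to 0.82). For the 3 genes called in Input they were 0.04 (TCP1, interval -0.28 to 0.36), 0.02 (CCT6A, interval -0.44 to 0.49) and 0.03 (HSPE1, interval -0.44 to 0.51), with edgeR adjusted p of at least 0.879 for all 10. Each of these 3 intervals ended below the estimated decrease in Input, but that estimate has an interval of its own (-0.67 to -0.40 for CCT6A). The 3 genes were also picked by that decrease, so whether the Polysome change kept part of it cannot be read from this.

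Relative to the bulk of mRNAs, most chaperonin mRNAs were lower in the polysome pool than in the lysate. In Ctrl cells, 9 of 10 were called lower in Polysome than in Input (18.8% of the 13666 genes tested) and 0 of 10 higher (20.8%), and in 9 of 10 the 4 Polysome libraries lay below the 4 Input libraries (23.2%). The median was -0.99 over the 10 genes and -0.03 over all genes, and -0.25 over the 1249 abundant genes, of which 29.9% were called lower. The 1265 genes with a coding length of 1500 to 1800 nt, the class of the CCT subunits (1593 to 1668 nt) and of HSPD1 (1719 nt), had a median of 0.08, and 17% were called lower.

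CCT3 was the lowest, with 1419 ± 63.1 CPM in Input Ctrl and 527 ± 130 CPM in Polysome Ctrl (SD, n = 4), a log2 fold change of -1.42 (edgeR adjusted p = 9.830e-06). Its Polysome Ctrl libraries measured 335, 578, 574 and 619.9 CPM, all under the lowest Input Ctrl library at 1338 CPM. CCT8 (-1.35, adjusted p = 1.218e-05) and CCT2 (-1.20, adjusted p = 6.010e-05) were next. HSPD1 (-1.05), CCT5 (-1.04) and CCT7 (-0.94) lay in the middle, all with an edgeR adjusted p of 0.00134 or less. CCT4 (-0.63), CCT6A (-0.56) and TCP1 (-0.54) were the least reduced of the CCT genes, at edgeR adjusted p of 0.00502, 0.00767 and 0.00194. Without Polysome Ctrl 1, CCT4 (-0.49) and CCT6A (-0.42) were no longer called. Without Input Ctrl 3 and 4 all 9 were called. That fit leaves the liver reads almost only in the Polysome libraries, so they and the fraction cannot be told apart in it.

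HSPE1 was the member not called. It measured 197 ± 14.8 CPM in Input Ctrl and 162 ± 43.4 CPM in Polysome Ctrl, with Polysome Ctrl 2 above every Input library. The log2 fold change of -0.27 (interval -0.62 to 0.08) did not pass the test (edgeR adjusted p = 0.195). Its coding sequence of 306 nt is the shortest of the 10, and the 557 genes tested with 200 to 400 nt had a median of -0.04. Per length, HSPE1 was 0.909 to 2.54 times HSPD1 in Polysome Ctrl, above the 0.752 to 0.886 times of the lysate in every library. In siRNAG5 the ratio was 0.63 to 1.6 in Polysome and 0.608 to 0.677 in Input, which overlap.

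In silenced cells 7 of 10 were called lower (21.2% of the 14795 genes tested) and 0 of 10 higher (23.9%), and 9 of 10 did not overlap (27.5%). CCT3 was again lowest at -1.46, followed by CCT7 and CCT8 (both -1.04), CCT2 (-1.02), CCT5 (-0.89), CCT4 (-0.74) and HSPD1 (-0.70). TCP1 (-0.43, edgeR adjusted p = 0.0108) and CCT6A (-0.46, adjusted p = 0.0228) passed the p threshold but not the fold threshold, and HSPE1 was at -0.17 (adjusted p = 0.285). With the replicate number as a block, for libraries that may share a lysate, 9 members were called in Ctrl and 7 in siRNAG5. Without Polysome siRNAG5 1 and 4, 5 members were called, and CCT4 and HSPD1 were at -0.46 and -0.35. Over all genes 3604 were then called lower and 4562 higher, where 3132 and 3535 were called with these libraries kept.

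**Figure D5:**
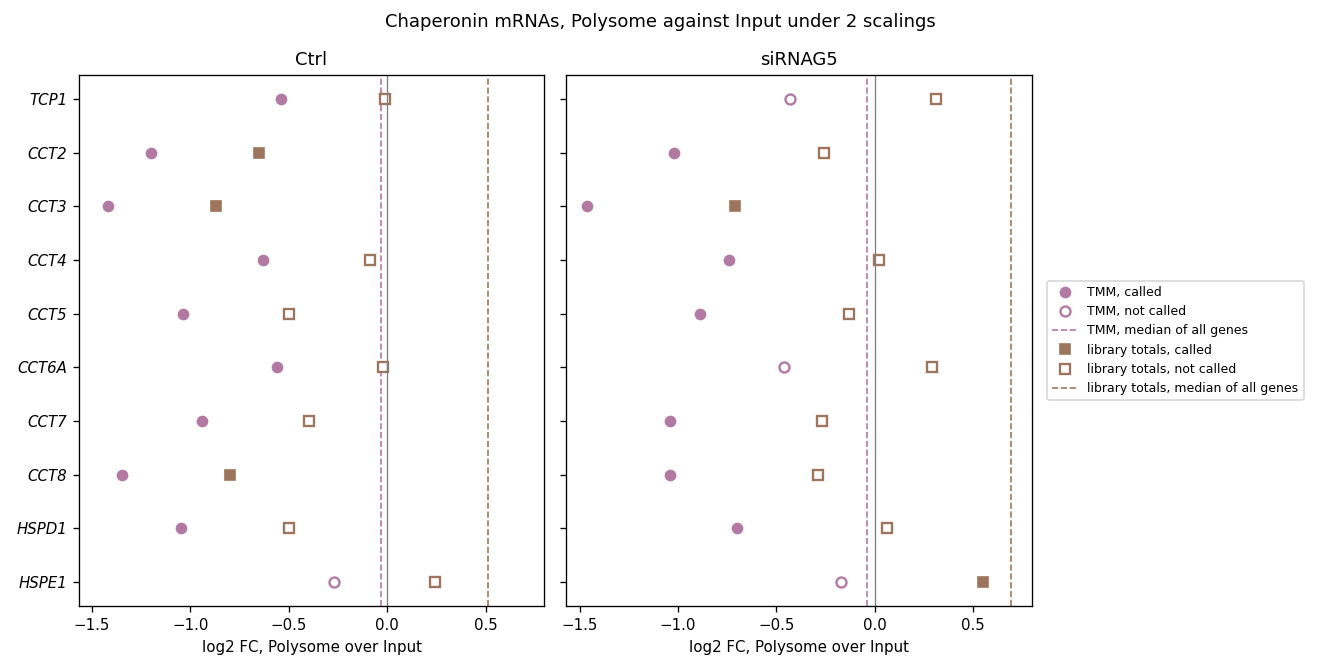
Log2 fold change of Polysome over Input for each chaperonin gene in Ctrl and in siRNAG5 cells, scaled by TMM (circles) and by library totals (squares), filled where called, with dashed lines at the median of all genes on each scale (n = 4 per group, errors not drawn). CCT3, CCT8 and CCT2 are lowest in Ctrl, and every marker lies to the left of its own dashed line. The change of scale moves markers and lines nearly together.

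These directions depend on the scale. With library totals the median of all genes became 0.51 in Ctrl and 0.69 in siRNAG5. On that scale 3 members stayed called lower in Ctrl (CCT3 at -0.87, CCT8 at -0.80 and CCT2 at -0.65) and 1 in siRNAG5 (CCT3 at -0.71). Over all genes the lower calls went from 2566 to 758 of 13666 tested in Ctrl. In siRNAG5 they went from 3132 to 797 of 14795. TCP1, CCT4 and CCT6A then lay at -0.01, -0.09 and -0.02 in Ctrl. HSPE1 turned to 0.24 in Ctrl and was called higher in siRNAG5, at 0.55, as were 8516 of the 14795 genes tested. All 10 lay below the median of all genes in both kinds of cell. The change of scale moves the genes and that median by nearly the same amount, so this position could hardly differ between the scales.

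Across the 16 libraries the CCT genes moved closely with each other, a description over libraries that share fraction and treatment. Pearson's r of log2 CPM over 16 libraries was 0.65 to 1.00 for the 28 pairs of CCT genes (median 0.93), 0.78 to 0.99 between HSPD1 and the CCT genes (median 0.95), and 0.22 to 0.80 between HSPE1 and the CCT genes (median 0.38). Of 14947 genes, those most like the mean profile of the 8 CCT genes were RARS1 (r = 0.996), DDX5 (r = 0.994) and ATIC (r = 0.994), a tRNA synthetase, an RNA helicase and an enzyme of purine synthesis. HSPD1 and HSPE1 had an r of 0.35 with each other, so their mean is not a profile that the pair shares. The genes most like that mean were OXSM (r = 0.986), TMBIM6 (r = 0.983) and COQ3 (r = 0.982).

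The lists below are read against the shares over all genes, 6.02% called lower in Input, 4% in Polysome, and 18.8% (Ctrl) and 21.2% (siRNAG5) in Polysome over Input. Of the partners of CCT, prefoldin, which hands unfolded actin and tubulin to CCT, had 0 of 6 subunits called in Input (median -0.16), and PFDN6 (-0.71, edgeR adjusted p = 0.0183) was the only one called in Polysome. Of 3 phosducin-like and thioredoxin-like cofactors of CCT, PDCL3 was lower in both fractions, at -0.56 (edgeR adjusted p = 2.137e-06) in Input and -0.63 (adjusted p = 0.0195) in Polysome. None of the 4 tubulin cofactors tested was called in either. Of 20 clients of CCT, 2 were called lower in Input, the beta tubulin TUBB4B (-0.52) and the mitotic activator CDC20 (-0.51), and 2 in Polysome, TUBB2A (-0.58) and WRAP53 (-0.61). In Polysome over Input of Ctrl 9 of the 20 clients were called lower, with the alpha tubulin TUBA1C lowest at -1.15, and VHL (0.54) higher. Under library totals TUBA1C was the 1 of these 9 still called lower. Of the chaperonin-like paralogs, MKKS was called lower in Input (-0.51, edgeR adjusted p = 3.085e-06), 1 of 4 tested.

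Around the mitochondrial chaperonin, the HSP70 system had 1 of 5 tested genes called lower in Input, the nucleotide exchange factor GRPEL1 (-0.57). In Polysome GRPEL1 (-0.58, edgeR adjusted p = 0.04) was lower and its paralog GRPEL2 (0.72, adjusted p = 0.0134) higher. HSPA9, the mitochondrial HSP70, was lower in Polysome than in Input, at -1.06 in Ctrl and -1.08 in siRNAG5, while GRPEL2 was higher there, at 1.14 and 1.66. GRPEL1 was at 0.14 and 0.17 and not called, and the median of the 5 genes was 0.03 and -0.02. None of the 10 other mitochondrial chaperones and proteases was called between siRNAG5 and Ctrl in either fraction, and 5 were called lower in Polysome than in Input in each kind of cell, none of them under library totals.

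Among 4 transcription factors with a role in chaperonin expression, ATF5, a regulator of the mitochondrial unfolded protein response, fell from 5.93 to 2.9 CPM in Input (-1.03, edgeR adjusted p = 9.448e-06) and was at -1.18 in Polysome (adjusted p = 0.0122). MYC was called higher in Polysome (0.61, edgeR adjusted p = 0.0465) and not in Input (0.37). HSF1 was at -0.03 in Input and -0.04 in Polysome, and HSF2 at 0.18 and 0.52, none of these called. Under library totals the lists' called genes named here between siRNAG5 and Ctrl kept their direction, and ATF5 in both fractions, GRPEL2 and MYC kept their calls. In Polysome over Input, TUBA1C, VHL and HSPA9 kept theirs in Ctrl, and HSPA9 lost it in siRNAG5.

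Some reads of the members may be shared with other genes. HSPE1 shares 192 of its 557 nt (34.5%) with the read-through gene HSPE1-MOB4 on the same strand, which was listed at 0 reads in all 16 libraries, so shared reads were either given to HSPE1 or set aside as ambiguous. Ambiguous reads were 4.14 to 7.41% of a library. Processed copies of the 10 genes number 58 in the annotation, and 26 of these are copies of HSPE1, which took 3.05 to 7.1% of the reads of gene and copies together. For HSPD1, with 18 copies, the share was 0.347 to 1.01%, for CCT6A 0.305 to 1.18%, and for the others at most 0.502%. On the opposite strand TCP1 shares 19.3% of its canonical transcript with ACAT2 and CCT5 52.7% with a long noncoding RNA. The libraries were stranded, and whether the counting used the strand is not stated, so reads from such partners were not separated here.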

How the data were processed

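Groups and replicates are those of the labels. The authors made libraries from polyadenylated RNA with a stranded kit, aligned paired reads to GRCh38 (Ensembl release 91) with STAR 2.5.3a and counted them per gene with QoRTs. The deposited values are raw counts, whole numbers without normalization, 1 column per library. Rows for not uniquely aligned, ambiguous and unassigned reads entered neither library sizes nor tests. Of 58302 identifiers 57532 were named with GENCODE v44.

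Fits used the quasi-likelihood test of edgeR 4.0.16 (R 4.3.3) with TMM scaling and filterByExpr on the groups compared, and all 16 libraries for the difference between fractions. Calls needed a log2 fold change beyond 0.5 and a p under 0.05 after Benjamini-Hochberg adjustment over all genes tested, where the study, which used DESeq2, states the same fold and an unspecified P under 0.05. CPM were scaled by TMM over the 16 libraries, and Pearson's r used log2 CPM with a prior count of 2. Levels between genes were compared per kilobase of the canonical transcript. Where nothing else is said, p-values rest on the spread among 4 samples per group. Alternatives were DESeq2 1.42.0, 1 surrogate variable (sva 3.50.0), no filter, a replicate block, the 16 libraries in one fit, each library left out, and, chosen after seeing the data, library totals, the set of 3 Polysome libraries as a covariate or left out, and Input Ctrl 3 and 4 left out. The scripts were tested on simulated data. Python 3.11.15, pandas 2.3.3, numpy 2.4.6 and matplotlib 3.10.9 were used.

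The 10 genes and the other lists were chosen with earlier results of these data known, although the rule for the 10 uses no measured value. Named genes were the 10, GEMIN5, genes sharing exon bases on the same strand, the called genes with the lowest and highest log2 fold change of each list, and the 3 genes most like each group by Pearson's r. Genes named outside this rule (ACAT2 and the long noncoding RNA, HSF1, HSF2, HSPA9, and MYC in Input) were added after values were seen. Promoters and start sites are from RefSeq (GRCh38.p14).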

Additional observations from a re-analysis of the deposited data

Results flagged for a closer look

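Of 40 sets of 4 libraries (10 genes in 4 groups), 4 held a library far from the other 3, where the gap to the nearest library, as a share of the whole range, passed Dixon's 95% critical value for 4 samples. Chance flags about 1 in 20 such sets. In Polysome Ctrl, library 1 was low for CCT2 (0.844, at 134.2 CPM against at least 251 CPM) and for CCT3 (0.839, at 335 CPM against 574 to 619.9 CPM), and it is the Ctrl library of the set that stood apart. In Input, Ctrl 2 was high for CCT4 (0.836, at 1160 CPM against 1042 to 1061 CPM), and siRNAG5 1 was low for CCT6A (0.85, at 370.7 CPM against 429.8 to 440.2 CPM).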

How the results depend on the processing

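In Input, library totals left 1 member called lower and turned CCT3 to 0.01, and leaving out one library gave 2 to 3 members and 1893 to 2494 genes in all. In Polysome, calls over all genes numbered 1146 and became 2999 with 1 surrogate variable, 1941 by DESeq2, 2597 in the fit of all 16 libraries, 3482 with the library set as a covariate, 3115 without the set, 2514 with library totals, 1766 without the filter, and 189 to 1523 with one library left out. Members called lower there were 4 with 1 surrogate variable (TCP1 -0.52, CCT6A -0.54, CCT7 -0.50, HSPE1 -0.64), 2 by DESeq2, 3 in the 16-library fit, 1 each with the set as a covariate, without the set and without the filter (HSPE1 in each), and 0 to 1 with one library left out. Directions that turned in Polysome were CCT2 (0.03 with the covariate, 0.20 with totals), CCT3 (0.18) and CCT5 (0.15) with totals, and HSPD1 (0.09 with the covariate, 0.01 without the set, 0.27 with totals). With one library left out, CCT8 ran from -0.02 to 0.26 and HSPD1 from -0.26 to 0.04. For the difference between fractions, calls over all genes were 456 with 1 surrogate variable, 29 by DESeq2, 765 without the set, 57 without the filter and 0 to 1 with one library left out. CCT3, CCT4 and CCT7 turned to 0.17, 0.11 and 0.13 with totals and HSPE1 to -0.13 without the set. With one library left out, TCP1 ran from -0.01 to 0.11, CCT2 from -0.06 to 0.24, CCT5 from -0.10 to 0.21, CCT6A from -0.10 to 0.13 and HSPE1 from -0.09 to 0.19. For Polysome over Input in Ctrl, totals left 3 members and turned HSPE1 to 0.24, and leaving out one library gave 7 to 9 members and 4909 to 5799 genes. In siRNAG5, totals left 1 member lower and 1 higher, with TCP1 at 0.31, CCT4 at 0.02, CCT6A at 0.29, HSPD1 at 0.06 and HSPE1 at 0.55, and leaving out one library gave 7 to 8 members and 6068 to 7081 genes. The cause of these shifts was not tested.

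Lower against higher calls over all genes went from 851 and 1479 to 450 and 2175 with totals in Input, from 577 and 569 to 207 and 2307 in Polysome, from 2566 and 2842 to 758 and 6246 for Polysome over Input in Ctrl, and from 3132 and 3535 to 797 and 8516 in siRNAG5. Input and Polysome libraries come from the same lysates, but the labels do not say that a number marks one, and by correlation the numbers did not pair the samples (correlations of same-numbered deviations from -0.53 to 0.48, and 1 to 4 of the 8 libraries of a comparison correlated best with their own number). With the replicate block, 3 members were called in Input, 0 in Polysome, 0 for the difference, 9 for Polysome over Input in Ctrl and 7 in siRNAG5, and over all genes 847 and 1466 were called in Input, 558 and 444 in Polysome, 2690 and 2841 for Polysome over Input in Ctrl and 3250 and 3454 in siRNAG5. The span of CCT levels in Input Ctrl was 3.15 to 3.23 with one library left out.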

Other observations

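MOB4, the gene downstream of HSPE1 on the same strand, was looked at after its values were seen. Its mean was 6.63 CPM in Input Ctrl and 18.4 CPM in Polysome Ctrl, higher in polysomes by 1.49 on the log2 scale (edgeR adjusted p = 1.425e-06), where HSPE1 was at -0.27. In siRNAG5 cells the means were 7.9 and 20 CPM, and its log2 fold change of siRNAG5 over Ctrl in Input was 0.27 and not called.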
